A study of Mus musculus with 10 samples.

Results

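The Bcl2 family genes described here are 10 named apoptosis regulators: the pro-survival genes Bcl2, Bcl2l1 and Mcl1, the effectors Bax and Bak1, and the BH3-only genes Bid, Bad, Bbc3, Pmaip1 and Bcl2l11. They were taken by name, and each gene's level is the sum of the TPM values (a length-corrected share of the library, scaled to a fixed total) over all of its listed transcripts. All 10 of the 10 were found among 22594 genes, and all 10 passed the filter on low values. The study profiled RNA of mouse fibroblasts, labelled post-mortem in every library, from lung and ear at time points of 12 h and 0 h. There were 2 lung libraries at 12 h, 2 lung libraries at 0 h, 3 ear libraries at 12 h and 3 ear libraries at 0 h. The labels name no strain, sex, age, culture step or start of the clock, and do not say whether libraries come from separate animals or pools, so the p-values below measure only the spread between these libraries, which may be technical.

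Bcl2 family proteins meet at the mitochondrial outer membrane, where their balance sets whether a cell starts the intrinsic path of apoptosis. BAX and BAK open the membrane and let cytochrome c out, the pro-survival proteins bind and restrain them, and the BH3-only proteins sense damage or lost growth signals and either switch the effectors on or tie up the pro-survival proteins. Much of this control acts on the proteins themselves, so mRNA levels give the supply of each member and not its activity.

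The libraries were alike in breadth, with 12024 to 12337 genes at 1 TPM or more and 0.641% to 1.30% of TPM from mitochondrial genes. TPM keeps no record of read depth, so the depth behind each value is unknown. The Y-linked gene Ddx3y stood at 53.3 TPM in lung 0 h replicate 2 and 52.4 TPM in ear 0 h replicate 2. It was at no more than 0.758 TPM in every other library. The calls of members without both libraries with Y-linked transcripts are given below. So are the lost calls of other genes that passed the filter in both tissues, apart from Bok, whose values there are not reported. Fibroblast markers summed to 3346 to 6656 TPM in lung and 5634 to 14014 TPM in ear, with all 12 markers at 1 TPM or more in every ear library and 10 of 12 in every lung library. Macrophage and myeloid markers summed to 7236 and 16503 TPM in 12 h lung and 5245 and 6962 TPM in 0 h lung, against 27.6 to 54.4 TPM in 12 h ear and 25.3 to 46.5 TPM in 0 h ear. In every ear library 6 of the 12 (Adgre1, Ptprc, Mrc1, Itgam, C1qa and C1qb) were below 1 TPM. Smooth muscle markers summed to 9076 to 17723 TPM in lung and 201.1 to 2686 TPM in ear. The part of these markers in the differences between tissues and times below was not tested. In bulk RNA fewer cells of a type and less RNA per cell cannot be told apart.

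Bax stood highest and Bcl2 lowest of the 10 members in every group, on the TPM scale, and neither overlapped its neighbour in the order. Bax averaged 256 ± 41.6 TPM in 12 h lung and 282 ± 40.8 TPM in 0 h lung (SD, n = 2 each), and 222 ± 30.6 TPM in 12 h ear and 242 ± 36.6 TPM in 0 h ear (SD, n = 3 each). Between them lay Mcl1, Bcl2l1, Bak1 and Bad, which overlapped their neighbours among these 4 in both lung groups. The order in lung at 12 h went on with Pmaip1, Bid, Bbc3 and Bcl2l11, where Pmaip1 and Bid overlapped, as did Bbc3 and Bcl2l11. In lung at 0 h the same 4 followed in the same order without overlap. In ear Bad came after Bax, and Bid stood above Pmaip1 at both times.

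**Figure D1:**
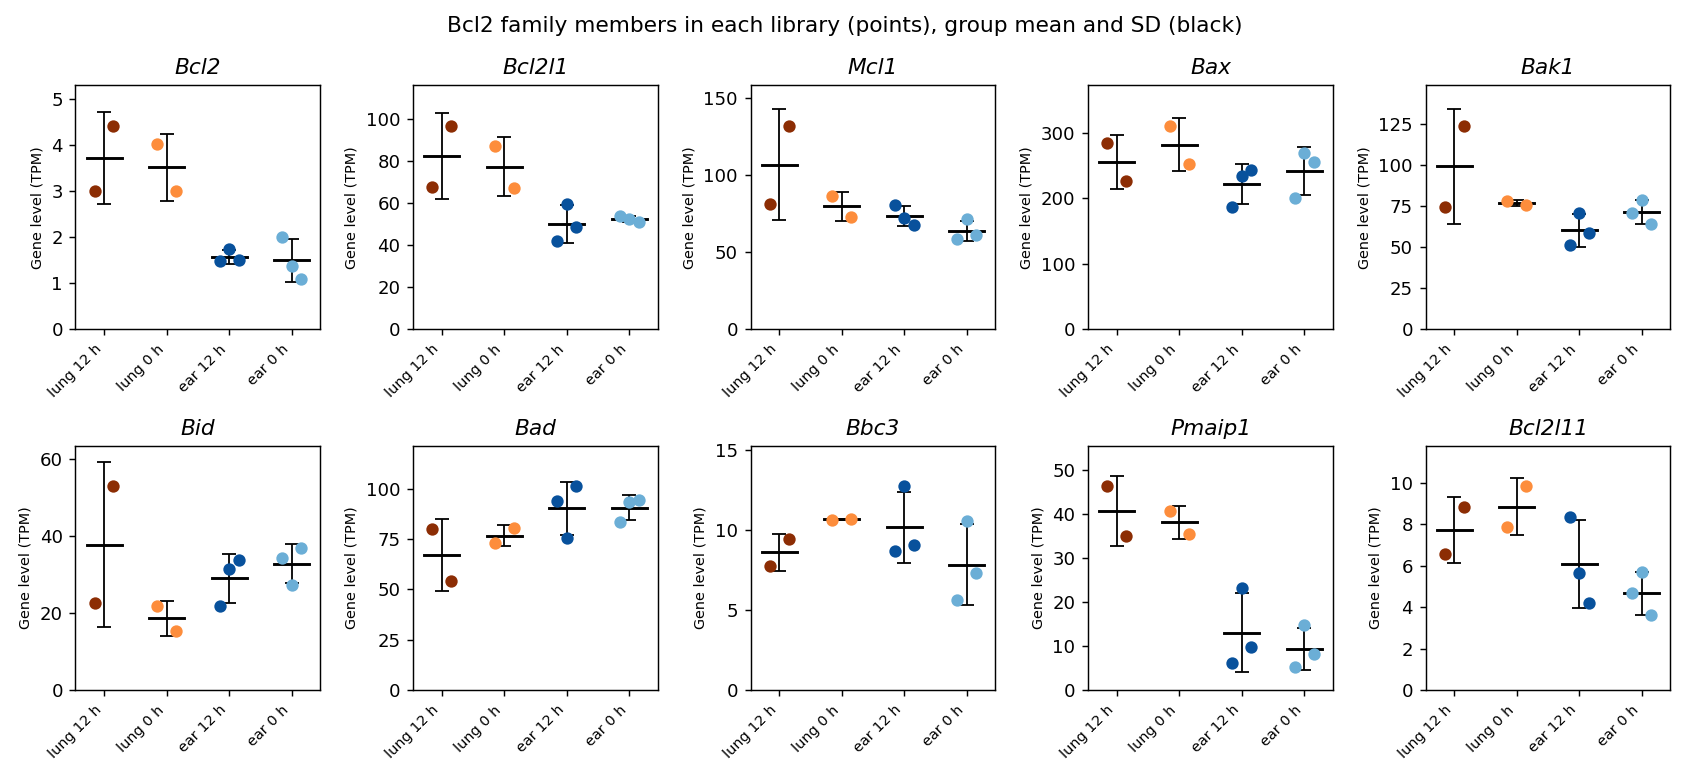
Gene level (TPM, linear axis from 0, 1 panel per gene) of the 10 Bcl2 family members in each library; points are libraries, and black lines are group means with SD. Bax sits highest and Bcl2 lowest in every group, and Pmaip1 stands at 35.0 to 46.3 TPM in the lung libraries, against 5.23 to 23.3 TPM in the ear libraries.

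Lung and ear differed most in Pmaip1 and Bcl2. At 12 h 2 of the 10 members were higher in lung, and none was lower, by limma with a Benjamini-Hochberg adjusted p under 0.05. In that comparison 17.2% of the 13188 genes tested were called, 8.07% as higher and 9.12% as lower. At 0 h the same 2 members, Pmaip1 and Bcl2, were higher and none was lower, where 11.3% of all genes were called, 6.11% as higher and 5.17% as lower. With 10 members, 2 calls are near the share over all genes. The median log2 difference of the members was 0.41 at 12 h, against -0.14 over all genes tested, and 0.38 at 0 h, against -0.08 over all genes tested, with 8 of 10 members above 0 at each time. Both comparisons read one fit over all 10 libraries.

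**Figure D2:**
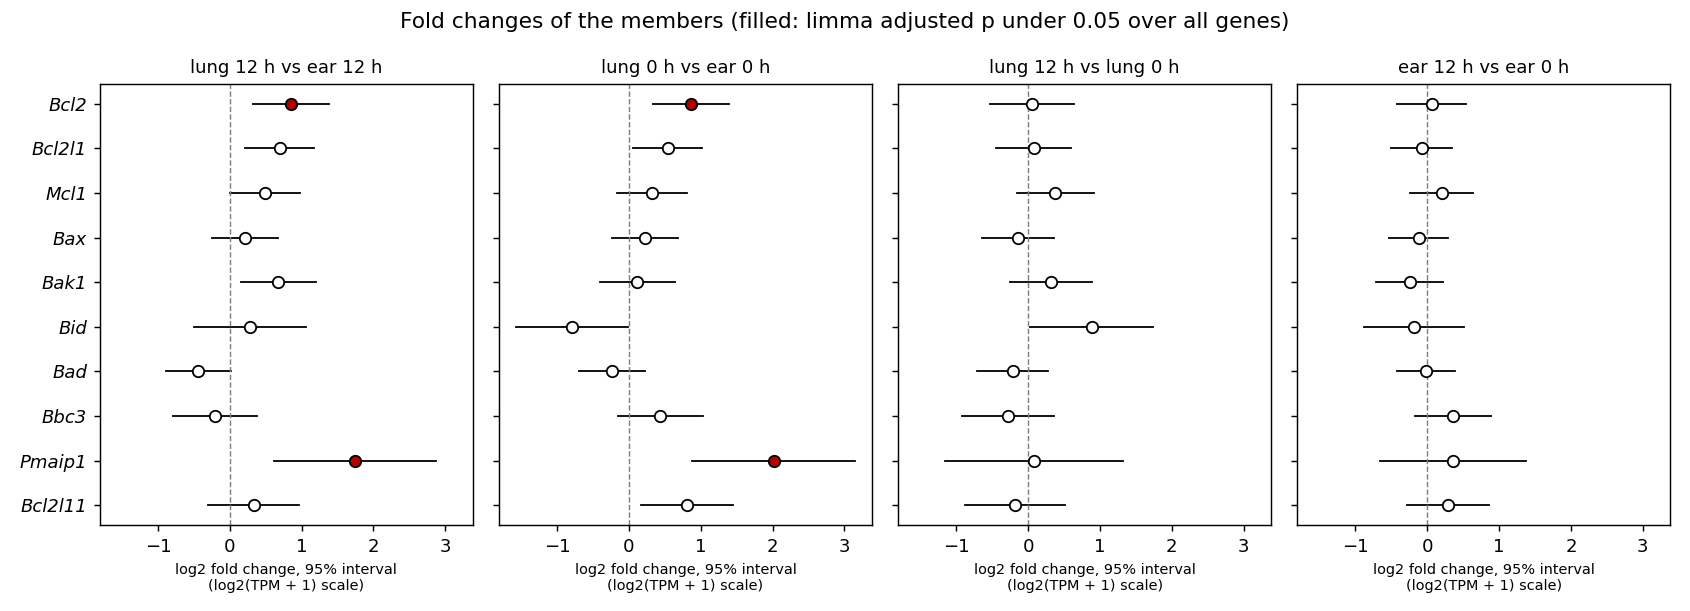
Log2 fold changes of the 10 members in the comparisons of lung with ear and of 12 h with 0 h, on the log2(TPM + 1) scale; points are limma estimates (filled where the adjusted p was under 0.05), lines are 95% confidence intervals and the dashed line marks 0. Pmaip1 and Bcl2 lie above 0 in both comparisons of lung with ear, at 1.74 and 0.86 at 12 h and at 2.02 and 0.86 at 0 h.

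Bcl2 (ENSMUSG00000057329.7, chromosome 1, 106538178 to 106714274, minus strand, GRCm38) encodes the founding pro-survival protein, which holds BAX and the BH3-only proteins. Bcl2 stood at 3.01 and 4.43 TPM in 12 h lung and at 4.03 and 3.01 TPM in 0 h lung, against 1.48, 1.74 and 1.51 TPM in 12 h ear and 2.02, 1.38 and 1.10 TPM in 0 h ear. Every lung library was above every ear library. The log2 difference was 0.86 at 12 h (SE 0.23, limma adjusted p = 0.0352) and 0.86 at 0 h (SE 0.23, limma adjusted p = 0.0464). The calls are close to the threshold: leaving out 1 library at a time gave 0.64 to 1.08 at 12 h and 0.70 to 1.03 at 0 h. The 12 h call was lost in 5 of 10 cases, without ear 0 h replicate 2, any ear 12 h library or lung 12 h replicate 2. The 0 h call was lost in 7 of 10 cases and held without ear 0 h replicate 1 or either lung 12 h library. Without both libraries that held Y-linked transcripts, Bcl2 missed the threshold at 12 h (0.86, limma adjusted p = 0.0779) and at 0 h (1.00, limma adjusted p = 0.176).

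Bcl2 has 2 listed transcripts that differ at the coding end. The alpha transcript (7191 bases) carries the membrane-anchored form, and the beta transcript (2841 bases) reads past the end of the first coding exon into the intron and carries a shorter form that lacks the hydrophobic tail. The coding ends are shown because the forms part there, with the bases that only 1 of the 2 coding sequences holds in capitals (alpha at chr1:106543267-106543398, and beta at chr1:106712284-106712304, minus strand, GRCm38, GENCODE).
Bcl2 alpha coding end: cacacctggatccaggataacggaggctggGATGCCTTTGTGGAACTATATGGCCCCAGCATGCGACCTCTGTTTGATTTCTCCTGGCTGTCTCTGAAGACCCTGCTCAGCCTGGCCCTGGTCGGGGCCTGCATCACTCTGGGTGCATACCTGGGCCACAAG
Bcl2 beta coding end: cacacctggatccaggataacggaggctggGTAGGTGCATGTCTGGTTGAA
The alpha end adds 44 codons and the beta end 7. The beta transcript made up 17.4% and 4.8% of Bcl2 TPM in 12 h lung and 10.9% and 29.2% in lung at 0 h, against 16.0%, 51.7% and 24.5% in ear at 12 h and 13.7%, 55.5% and 27.3% in ear at 0 h. Replicate 2 of ear had the highest share at both times. The beta transcript stood at no more than 0.900 TPM in any library, below the filter, so no test was run on it, and it shares 846 of its 2811 runs of 31 bases with the alpha transcript. For the alpha transcript alone the log2 difference was 1.04 at 12 h (SE 0.31, limma adjusted p = 0.0711) and 0.93 at 0 h (SE 0.31, limma adjusted p = 0.141), adjusted over 27764 transcripts.

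**Figure D3:**
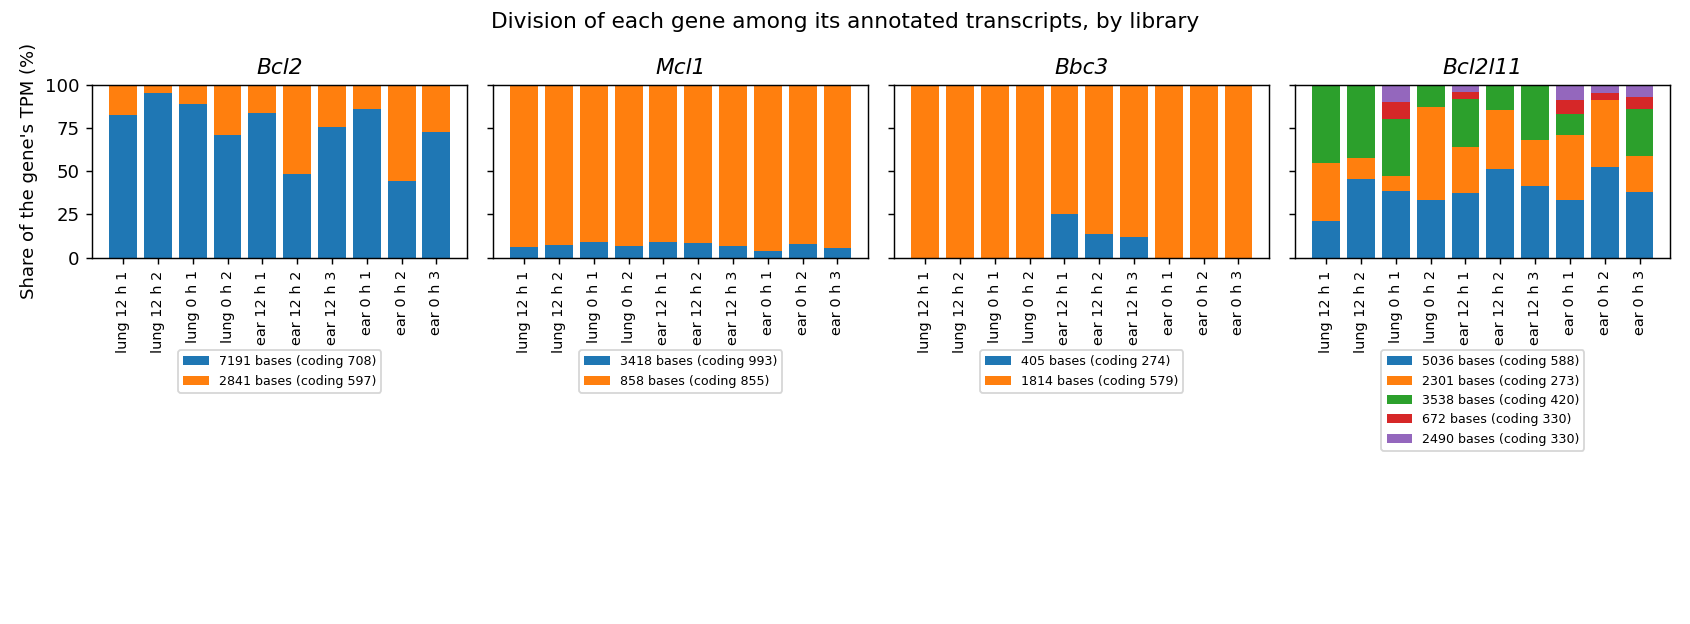
Stacked bars of the share (percent of the gene's TPM) of each listed transcript of Bcl2, Mcl1, Bbc3 and Bcl2l11 in each library, with transcripts named by their length and coding length. The Bcl2 beta transcript (2841 bases) reaches 29.2% in lung and 55.5% in ear, while the 858-base Mcl1 transcript stays between 90.7% and 96.0% in every library.

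Bcl2l1 (ENSMUSG00000007659.18, chromosome 2, 152780668 to 152831728, minus strand) encodes BCL-XL, which restrains BAX and BAK. It stood at 67.7 and 96.7 TPM in 12 h lung and 87.2 and 67.3 TPM in 0 h lung, against 42.0, 59.5 and 48.6 TPM in 12 h ear and 53.7, 52.3 and 51.1 TPM in 0 h ear. Every lung library was above every ear library, as for Bcl2. Lung minus ear on the log2 scale was 0.70 at 12 h (SE 0.21, limma adjusted p = 0.0524) and 0.54 at 0 h (SE 0.21, limma adjusted p = 0.151), and neither passed. The 95% intervals were 0.22 to 1.18 at 12 h and 0.06 to 1.02 at 0 h. Its 2 main transcripts, of 2417 and 2568 bases, were listed at equal TPM in each library, each with 48.7% of the total, so their division was not resolved.

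Over all libraries 3 of the 10 members, Bcl2, Bcl2l1 and Pmaip1, were higher in every lung library than in every ear library, where 10.7% of all genes were. None of the 10 was lower in every lung library, where 15.2% of all genes were, and in either direction the share over all genes was 25.8%. The 250 bases before a start site are shown for the pair of pro-survival genes among these 3, for Bcl2l1 before the farthest upstream of its 3 listed starts, with GGGCGG or its reverse complement (the GC box) in capitals.
Bcl2 (chr1:106714291-106714540, minus strand, RefSeq GRCm38.p6): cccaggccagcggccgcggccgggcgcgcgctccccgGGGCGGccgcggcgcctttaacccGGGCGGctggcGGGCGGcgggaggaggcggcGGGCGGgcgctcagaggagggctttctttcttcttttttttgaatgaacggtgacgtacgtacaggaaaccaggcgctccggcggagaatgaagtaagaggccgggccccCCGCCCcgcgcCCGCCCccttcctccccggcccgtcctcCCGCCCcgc
Bcl2l1 (chr2:152831729-152831978, minus strand, RefSeq GRCm38.p6): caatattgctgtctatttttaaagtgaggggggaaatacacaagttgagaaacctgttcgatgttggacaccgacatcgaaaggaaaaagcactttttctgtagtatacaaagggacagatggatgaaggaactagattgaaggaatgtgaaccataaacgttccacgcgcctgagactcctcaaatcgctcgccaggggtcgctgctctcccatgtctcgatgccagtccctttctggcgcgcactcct
The Bcl2 window holds 7 GC boxes on both strands and is 74.8% G and C, and the Bcl2l1 window holds none and is 47.6% G and C. The other 2 Bcl2l1 windows also hold none, at 48.4% and 53.2% G and C. Searched on both strands, GGGCGG was in 10 of 15 windows of 9 members and in 32.7% of all 32851 windows of this length. The median over all windows was 52.4% G and C, and the 15 ran from 47.6% to 81.6%, so these shares are not matched for base content. Windows of Bbc3 overlap in part, so the 15 are not separate. CACGTG was in 2 of the 15 windows, against 6.02% of all windows. TGANTCA (6.75% of all windows), TATAAA (12.4%) and TGACGTCA (1.55%) were in none of the 15. These are letters in a window and say nothing of binding.

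Mcl1 (ENSMUSG00000038612.16, chromosome 3, 95658788 to 95663176, plus strand) encodes a short-lived pro-survival protein that restrains BAK. It stood at 81.2 and 132 TPM in 12 h lung and 86.5 and 73.3 TPM in 0 h lung, against 80.9, 72.2 and 67.5 TPM in 12 h ear and 59.0, 71.6 and 61.1 TPM in 0 h ear. Lung 12 h replicate 2 stood highest, and it is the library with the highest macrophage marker sum, 16503 TPM. The fitted log2 difference between lung and ear was 0.49 at 12 h (SE 0.22, limma adjusted p = 0.156) and 0.32 at 0 h (SE 0.22, limma adjusted p = 0.430), so neither passed. Without that library the 12 h value was 0.15.

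The deposited Mcl1 values rest mostly on a short transcript model of 858 bases with no untranslated ends, which lacks 138 coding bases of the full transcript of 3418 bases. It held 91.0% to 93.7% of Mcl1 TPM in lung and 90.7% to 96.0% in ear. The stretch that the full transcript has and the short one lacks is shown in capitals (chr3:95658879-95659076, plus strand, GRCm38, GENCODE), followed by the joined sequence of the short one.
Mcl1 full transcript: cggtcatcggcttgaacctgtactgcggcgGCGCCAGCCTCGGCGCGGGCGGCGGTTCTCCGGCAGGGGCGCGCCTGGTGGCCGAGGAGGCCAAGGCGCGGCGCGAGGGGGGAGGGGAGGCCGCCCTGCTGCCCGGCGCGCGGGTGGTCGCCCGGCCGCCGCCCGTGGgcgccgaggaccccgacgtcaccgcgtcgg
Mcl1 short transcript: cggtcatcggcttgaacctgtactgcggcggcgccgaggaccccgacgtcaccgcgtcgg
The short transcript shares 804 of its 828 runs of 31 bases with the full one, so the Mcl1 level depends on how kallisto divided shared reads between models of 858 and 3418 bases.

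Bax (ENSMUSG00000003873.11, chromosome 7, 45461697 to 45466898, minus strand) encodes the effector that moves from the cytosol to the mitochondrion. It stood at 285 and 226 TPM in 12 h lung and 311 and 253 TPM in 0 h lung, against 187, 235 and 243 TPM in 12 h ear and 200, 269 and 255 TPM in 0 h ear. The tissues overlapped. Lung against ear gave a log2 difference of 0.21 at 12 h (95% interval -0.25 to 0.67, limma adjusted p = 0.534) and 0.23 at 0 h (-0.23 to 0.69, limma adjusted p = 0.568). The transcript with 576 coding bases held 73.8% to 77.9% of its TPM in lung and 75.4% to 77.8% in ear.

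The ratio of Bax to Bcl2 TPM was 51.1 to 94.7 in lung (median 80.6, n = 4) and 99.2 to 231 in ear (median 148, n = 6). The ranges did not overlap, and the ratio uses the Bcl2 values already given. Bax over Bcl2l1 was 2.34 to 4.21 in lung and 3.73 to 5.15 in ear. Bax made up 30.4% to 43.1% of the summed TPM of the 10 members in lung and 37.2% to 43.7% in ear. The pro-survival genes summed to 144 to 233 TPM in lung and 113 to 133 TPM in ear, without overlap. That sum uses the Bcl2, Bcl2l1 and Mcl1 values already given, and its highest value was in lung 12 h replicate 2. The effectors summed to 329 to 389 TPM in lung and 238 to 349 TPM in ear, with overlap. The BH3-only genes summed to 152 to 163 TPM in lung and 133 to 158 TPM in ear.

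Bak1 (ENSMUSG00000057789.14, chromosome 17, 27019810 to 27029009, minus strand) encodes the effector that sits in the outer membrane. It stood at 74.5 and 124 TPM in 12 h lung and 78.2 and 75.8 TPM in 0 h lung, against 51.3, 71.3 and 58.8 TPM in 12 h ear and 70.7, 79.1 and 64.4 TPM in 0 h ear. Lung was above ear without overlap at 12 h, and the tissues overlapped at 0 h. The log2 difference was 0.67 at 12 h (SE 0.23, limma adjusted p = 0.0774) and 0.11 at 0 h (SE 0.23, limma adjusted p = 0.833). Lung 12 h replicate 2, at 124 TPM, stood apart, and without it the 12 h value was 0.31.

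Pmaip1 (ENSMUSG00000024521.8, chromosome 18) encodes NOXA, a BH3-only protein and p53 target that binds MCL1. It stood at 46.3 and 35.0 TPM in 12 h lung and 40.8 and 35.5 TPM in 0 h lung, against 6.21, 23.3 and 9.75 TPM in 12 h ear and 5.23, 14.7 and 8.18 TPM in 0 h ear. Every lung library was above every ear library, and the ear libraries spread more widely relative to their level. Lung minus ear on the log2 scale was 1.74 at 12 h (SE 0.50, limma adjusted p = 0.0430) and 2.02 at 0 h (SE 0.50, limma adjusted p = 0.0319).

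The Pmaip1 calls also lie near the threshold. Leaving out 1 library at a time gave 1.35 to 2.23 at 12 h, with the call lost in 7 of 10 cases and held without ear 0 h replicate 1 or 2 or ear 12 h replicate 2. At 0 h it gave 1.70 to 2.37, with the call lost in 5 of 10 cases, without ear 0 h replicate 1 or 3, ear 12 h replicate 3 or either lung 0 h library. Without both libraries with Y-linked transcripts the value was 1.74 at 12 h (limma adjusted p = 0.0597) and 2.47 at 0 h (limma adjusted p = 0.0893). In ear the replicates numbered 2 had the highest Pmaip1, 23.3 TPM at 12 h and 14.7 TPM at 0 h. Those libraries also had the highest smooth muscle marker sums in ear, 2686 TPM at 12 h and 2646 TPM at 0 h, and whether they play a part was not tested. Smooth muscle markers were called higher in lung for 7 of 7 tested at 12 h and 5 of 7 at 0 h. Over all genes 8.07% were called higher at 12 h and 6.11% at 0 h. Rgs5 and Kcnj8 were below 1 TPM in every ear library, so either could pass the filter only through lung.

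**Figure D4:**
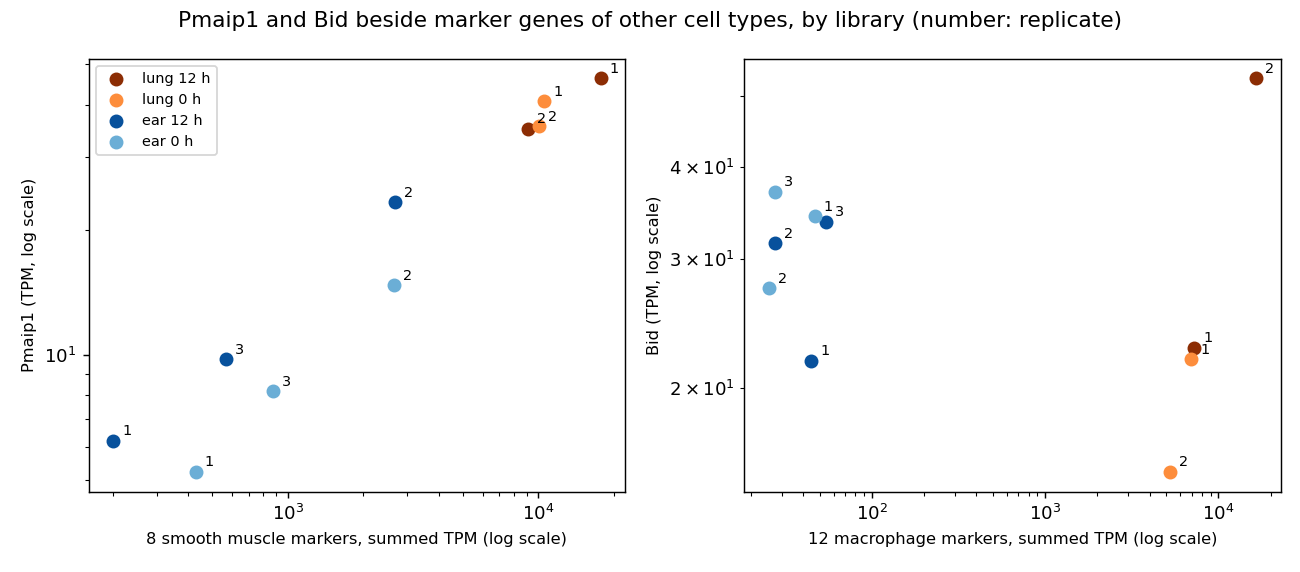
Pmaip1 TPM against the summed TPM of 8 smooth muscle markers, and Bid TPM against that of 12 macrophage and myeloid markers (log axes); each point is a library, numbered by replicate and coloured by group. The lung libraries lie at 9076 to 17723 TPM of smooth muscle markers and 35.0 to 46.3 TPM of Pmaip1, and the ear libraries at 201.1 to 2686 and 5.23 to 23.3 TPM.

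Pmaip1 had the widest range of group means of the 10 members, 2.10 on the log2 scale. The genes most like it over the 10 libraries, by Pearson correlation of log2(TPM + 1), were F2r (r = 0.990), Ppp1r14a (r = 0.980) and Frmd4a (r = 0.974). F2r, the thrombin receptor gene, stood at 491 and 341 TPM in 12 h lung and 345 and 373 TPM in 0 h lung, against 65.9, 182 and 91.5 TPM in 12 h ear and 67.2, 139 and 83.4 TPM in 0 h ear. As with Pmaip1, the highest ear libraries were the replicates numbered 2. The points share libraries and the tissue difference, so the correlations are a description.

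Bid (ENSMUSG00000004446.12, chromosome 6, 120891930 to 120916853, minus strand) encodes the BH3-only protein that caspase 8 cuts, tying death receptors to mitochondria. It stood at 22.7 and 52.9 TPM in 12 h lung and 21.9 and 15.4 TPM in 0 h lung, against 21.8, 31.5 and 33.7 TPM in 12 h ear and 34.3, 27.3 and 37.0 TPM in 0 h ear. Lung was below ear without overlap at 0 h, and at 12 h the tissues overlapped, with lung 12 h replicate 2 above every other library. That library also had the highest macrophage marker sum, 16503 TPM, and the part of those cells was not tested. The fitted log2 difference between lung and ear was 0.28 at 12 h (SE 0.35, limma adjusted p = 0.631) and -0.80 at 0 h (SE 0.35, limma adjusted p = 0.191). Without lung 12 h replicate 2 the 12 h value turned to -0.32. A 535-base transcript with 157 coding bases held 50.1% to 65.1% of Bid TPM in lung and 44.7% to 64.3% in ear. At 12 h its own log2 difference was 0.53 (SE 0.41, limma adjusted p = 0.469), with 34.4 TPM in lung 12 h replicate 2 and 13.2 TPM in replicate 1. In 12 h ear it stood at 12.7 to 16.1 TPM. The value was -0.05 for each of the transcripts with 585 coding bases. Those were listed at equal TPM in each library, so their division was not resolved.

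Bad (ENSMUSG00000024959.14, chromosome 19, 6941861 to 6951899, plus strand) encodes the BH3-only protein that growth factor signalling holds off by phosphorylation. It stood at 79.9 and 54.3 TPM in 12 h lung and 72.9 and 80.5 TPM in 0 h lung, against 94.1, 75.5 and 101 TPM in 12 h ear and 83.5, 93.6 and 94.6 TPM in 0 h ear. It was the member with the lowest log2 difference at 12 h, and no lung library at 0 h reached an ear library. Lung against ear gave a log2 difference of -0.44 at 12 h (SE 0.20, limma adjusted p = 0.172) and -0.24 at 0 h (SE 0.20, limma adjusted p = 0.543).

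Bbc3 (ENSMUSG00000002083.13, chromosome 7, 16308393 to 16318205, plus strand) encodes PUMA, a p53-induced BH3-only protein that binds all the pro-survival proteins. It stood at 7.79 and 9.44 TPM in 12 h lung and 10.7 and 10.7 TPM in 0 h lung, against 8.71, 12.7 and 9.07 TPM in 12 h ear and 5.63, 10.6 and 7.30 TPM in 0 h ear. Lung and ear overlapped at 12 h, and at 0 h the lung libraries stood just above the highest ear library. The log2 difference was -0.20 at 12 h (SE 0.26, limma adjusted p = 0.638) and 0.44 at 0 h (SE 0.26, limma adjusted p = 0.351).

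The 405-base transcript of Bbc3, singled out after its values were seen, was listed at 0 in all 4 lung libraries and in all 3 ear libraries at 0 h, and at 2.20, 1.75 and 1.07 TPM in 12 h ear. It shares 260 of its 375 runs of 31 bases with the main transcript of 1814 bases, and a listed 0 can be a failed estimate. It reached the filter of 1 TPM only in 12 h ear, the group where it is high, so no test is given for it.

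Bcl2l11 (ENSMUSG00000027381.16, chromosome 2, 128126038 to 128162547, plus strand) encodes BIM, a BH3-only protein that rises in many cells when growth factors are withdrawn. It stood at 6.57 and 8.82 TPM in 12 h lung and 7.87 and 9.81 TPM in 0 h lung, against 8.36, 5.66 and 4.18 TPM in 12 h ear and 4.67, 5.70 and 3.61 TPM in 0 h ear. Lung was above ear without overlap at 0 h. Lung minus ear on the log2 scale was 0.33 at 12 h (SE 0.28, limma adjusted p = 0.467) and 0.81 at 0 h (SE 0.28, limma adjusted p = 0.108), and neither passed. The transcript with 588 coding bases held 21.1% to 45.6% of its TPM in lung and 33.1% to 52.7% in ear, and the one with 420 held 12.6% to 45.2% in lung and up to 32.1% in ear.

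At each time more members stood above than below in lung without overlap between the tissues. At 12 h 5 of 10 members (Bcl2, Bcl2l1, Mcl1, Bak1 and Pmaip1) were higher in both lung libraries than in every ear library, where 17% of all genes were, and none was lower, where 30.2% of all genes were (47.3% in either direction). At 0 h 6 of 10 (Bcl2, Bcl2l1, Mcl1, Bbc3, Pmaip1 and Bcl2l11) were higher, where 18% of all genes were, and 2 (Bid and Bad) were lower, where 25.6% of all genes were (43.6% in either direction). For Mcl1 at 12 h and Bbc3 at 0 h the gap between the nearest libraries was under 0.5 TPM.

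No member passed the test for time. In lung at 12 h against lung at 0 h, 0 of 10 members were called by limma, where 0.00758% of all genes were called, and 1 member had an unadjusted p under 0.05. In ear at 12 h against ear at 0 h, 0 of 10 were called, where 0% of all genes were called, and 0 members had an unadjusted p under 0.05. In the difference between the lung and ear time effects, 0 of 10 were called, where 0% of all genes were called, and 0 had an unadjusted p under 0.05. Over all genes 526 in lung, 219 in ear and 387 in the difference had an unadjusted p under 0.05. The members' median log2 time difference was 0.07 in lung and 0.02 in ear, against -0.01 in lung and 0.03 in ear over all genes tested.

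Bid had the lowest unadjusted p of the members over time. In lung its log2 difference between 12 h and 0 h was 0.88 (SE 0.38, unadjusted p = 0.0438, 95% interval 0.03 to 1.74, limma adjusted p = 1), resting on lung 12 h replicate 2, and without that library it was 0.29. By transcript, the lung time value was 1.07 (SE 0.45) for the 535-base Bid transcript. For the Bid transcripts with 585 coding bases it was 0.52 (SE 0.35). In ear the Bid gene value was -0.19 (95% interval -0.88 to 0.51), and the lung minus ear difference was 1.07 (95% interval -0.03 to 2.17). In ear the widest time estimates were Bbc3 at 0.36 (95% interval -0.17 to 0.88) and Pmaip1 at 0.36 (95% interval -0.66 to 1.37). In lung Mcl1 was at 0.38 (95% interval -0.16 to 0.91), Bak1 at 0.32 (95% interval -0.25 to 0.89) and Bbc3 at -0.28 (95% interval -0.93 to 0.36). For Pmaip1 in lung the interval ran from -1.16 to 1.32, so a change of more than 1 log2 unit either way lies within it, and missing the threshold does not show that levels were equal at 12 h and 0 h.

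Without overlap between times, 1 of 10 members was higher in lung at 12 h (Bid, 22.7 and 52.9 TPM at 12 h against 21.9 and 15.4 TPM at 0 h), where 11.1% of all genes were. In the same comparison 1 was lower (Bbc3, 7.79 and 9.44 TPM at 12 h against 10.7 and 10.7 TPM at 0 h), where 14.3% of all genes were (25.5% in either direction). In ear 0 of 10 members differed without overlap, where 5.37% of all genes did, 3.93% as higher and 1.44% as lower.

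Genes that act beside the members were taken from lists by role, and their median log2 differences can be read beside those over all genes tested, -0.14 at 12 h and -0.08 at 0 h. Over all genes 8.07% were called higher in lung and 9.12% lower at 12 h, and 6.11% higher and 5.17% lower at 0 h. With 7 to 14 genes tested in a list, 1 or 2 calls in a direction are near these shares. Of 13 other Bcl2 family genes tested out of 16, at 12 h 4 were higher in lung and 1 was lower (median -0.17), and at 0 h 4 were higher and none was lower (median 0.36). The largest were the Bcl2a1 genes, pro-survival relatives of Bcl2 known from blood cells: Bcl2a1b was at 6.09 at 12 h and 4.98 at 0 h, on the log2 scale. Their summed level was 81.8 and 170 TPM in 12 h lung and 87.0 and 47.4 TPM in 0 h lung, against 0.167 to 0.411 TPM in ear. The 3 copies listed (Bcl2a1a, Bcl2a1b and Bcl2a1d) are near-identical, so their division is uncertain, and they passed the filter only through lung, where the macrophage markers were also high, so their calls support nothing further. Bcl2l12 was at -0.75 at 12 h (limma adjusted p = 0.0182). Bok, a BAX and BAK relative, was called at 0 h (2.05, limma adjusted p = 0.0484), and Bcl2l15, called at 12 h, passed the filter only through lung (1.39 and 1.43 TPM in 12 h lung and 1.18 and 0.823 TPM in 0 h lung, against 0.135 to 0.726 TPM in ear).

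Further down the path, of 14 apoptosome and caspase genes 1 was called higher in lung at 12 h, Cycs (cytochrome c, 0.80, limma adjusted p = 0.0453), and 0 at 0 h, where 2 had an unadjusted p under 0.05. The list medians were -0.18 at 12 h and -0.13 at 0 h. Of 7 caspase inhibitor genes 1 was higher at each time, Naip2, with medians of -0.35 at 12 h and -0.25 at 0 h. Naip2 is known as a sensor of bacterial proteins for the inflammasome of macrophages. It stood at 3.42 and 10.9 TPM in 12 h lung and 4.08 and 4.88 TPM in 0 h lung, against 0.0971 to 0.232 TPM in ear, and passed the filter only through lung. Of 9 death receptor and adaptor genes tested out of 11 (medians -0.32 at 12 h and -0.26 at 0 h), the death receptor gene Tnfrsf25 was called lower at both times, at 0 to 0.488 TPM in lung against 3.42 to 4.75 TPM in ear, and it passed the filter only through ear. Tnf, the gene of the inflammatory cytokine, was called higher at 12 h and not at 0 h, at 2.20 and 26.3 TPM in 12 h lung and 4.52 and 0.968 TPM in 0 h lung, against 0 to 0.190 TPM in ear. It passed the filter only through lung, and no gene was called in the test of the difference between the time effects. Of 12 outer membrane genes (medians 0.16 at 12 h and -0.02 at 0 h) 1 was higher at each time, Vdac2, the channel that binds BAK (0.88 at 12 h and 1.00 at 0 h, limma adjusted p = 0.0252 and 0.0195).

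Of 13 regulators of the members tested out of 14 (medians -0.03 at 12 h and -0.10 at 0 h), 1 was higher in lung at 12 h, Mdm2, the p53 ligase (0.79, limma adjusted p = 0.0287), and 0 at 0 h, where 1 had an unadjusted p under 0.05. Of 14 p53 targets 2 were higher at 12 h, the cell cycle inhibitor Cdkn1a (0.81, limma adjusted p = 0.0419) and Mdm2, which is in both lists, and the stress cytokine gene Gdf15 was higher at 0 h (1.24, limma adjusted p = 0.0468). Perp was lower at both times (-1.85 at 12 h, limma adjusted p = 0.0428, and -3.29 at 0 h, limma adjusted p = 0.00445). The median of the p53 targets was 0.34 at 12 h and 0.32 at 0 h. No gene of these lists was called over time in lung or in ear, or in the difference between them.

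Among the named calls of genes that passed the filter in both tissues, leaving out 1 library at a time kept Perp at 0 h in all 10 cases. Without both libraries with Y-linked transcripts, Perp (-2.60, limma adjusted p = 0.0966) and Gdf15 (1.15, limma adjusted p = 0.276) missed the threshold at 0 h. At 12 h Perp (-1.85, limma adjusted p = 0.0627), Cycs (0.80, limma adjusted p = 0.0894), Cdkn1a (0.81, limma adjusted p = 0.0858) and Mdm2 (0.79, limma adjusted p = 0.0777) missed it too. Apart from Bok, the other calls of such genes were each lost when some single libraries were left out. Cycs stayed called only without ear 12 h replicate 2 (values 0.57 to 0.97), and Cdkn1a only without ear 0 h replicate 1 or ear 12 h replicate 2 (0.61 to 1.01). Gdf15 stayed called only without ear 12 h replicate 1 or 2 or lung 12 h replicate 1 (1.08 to 1.40), and Perp at 12 h only without ear 0 h replicate 1, ear 12 h replicate 1 or either lung 0 h library (-2.37 to -1.39). Mdm2 was lost without ear 12 h replicate 1 or 3 or either lung 12 h library (0.64 to 0.96). Vdac2 at 0 h was lost without ear 0 h replicate 1 or 3 or lung 0 h replicate 1 (0.70 to 1.31). Vdac2 at 12 h was lost without ear 12 h replicate 1 or 2 or lung 12 h replicate 2 (0.74 to 1.02). Bcl2l12 was lost without ear 12 h replicate 3 or lung 12 h replicate 2 (-0.79 to -0.71). For Bok, values with 1 library left out or without both libraries with Y-linked transcripts are not reported.

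**Figure D5:**
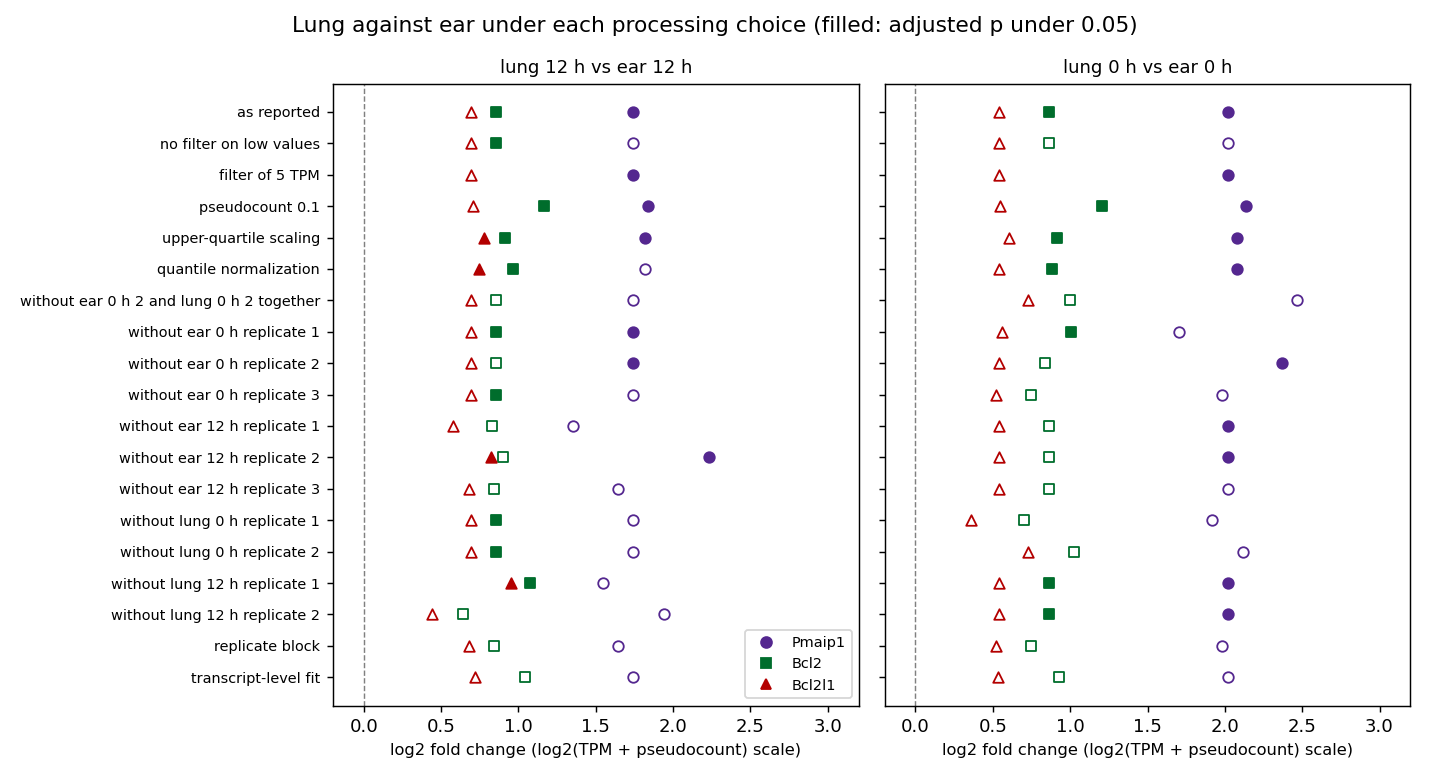
Log2 difference between lung and ear for Bcl2, Pmaip1 and Bcl2l1 under each way of processing the values; points are estimates on the log2(TPM + pseudocount) scale, filled where the adjusted p was under 0.05, and Bcl2 has no value under the filter of 5 TPM, where it was not tested. Every estimate lies above 0, and the calls of Bcl2 and Pmaip1 are lost under several settings.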

How the data were processed

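RNA of mouse lung and ear fibroblasts was sequenced; the authors deposited transcript TPM values made with kallisto 0.44.1 on GRCm38, per the submitters' processing notes. No source used here states the index, bias correction or trimming. Transcript identifiers were matched to GENCODE vM21 (60503 of 61440, 56128 with the same version); the 937 unmatched held 0.508% to 0.590% of TPM. TPM was summed to 22594 genes. Testing covered the 13188 genes that reached 1 TPM in 2 or more libraries, using limma 3.58.1 in R 4.3.3 on log2(TPM + 1), with 1 mean for each of the 4 groups and eBayes with a mean trend (6 residual and 3.23 prior degrees of freedom). Tests were two-sided, Benjamini-Hochberg adjusted over all genes tested, with a threshold of 0.05. Fold changes on this scale understate those of low genes. The procedure was tested on simulated data.

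Members and gene lists were chosen with earlier results of these data known. All 10 members are named, and from each list the called genes, at most 3 in each direction by size; Bok, Bcl2l15 and the 405-base Bbc3 transcript were named after their values were seen. With group means removed, same-numbered ear libraries correlated at 0.453, 0.320 and 0.377, and same-numbered lung libraries at -0.443. Numbers were treated as pairs in the replicate block only, and the main fit, with its errors and p-values, used no pairs. Ddx3y, at 0.017 TPM in ear 12 h replicate 2 and 52.4 TPM in ear 0 h replicate 2, goes against a shared source for that pair. Alternatives covered the filter, pseudocount, scaling, blocks, single transcripts and left-out libraries. Upstream windows are RefSeq GRCm38.p6, and transcript sequences are GENCODE vM21.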

Additional observations from a re-analysis of the deposited data

How the results depend on the processing

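Of 70 alternative values of the 4 called member results, 0 turned direction and 40 lost the call. Of 825 values of the 46 results not called, 45 turned direction and 9 gained a call. Among the 20 named results of other genes, 335 values gave 0 turns and 72 lost calls. The cause was not tested unless stated.

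At 0 h, lung against ear, members called were 0 with no filter, 1 with a filter of 5 TPM (Bcl2 was not tested there), 0 without both libraries with Y-linked transcripts, 0 with the replicate block and 0 in the transcript-level fit, and ranged from 0 to 2 with 1 library left out. At 12 h they were 1 with no filter, 1 with a filter of 5 TPM, 4 with upper-quartile scaling, 0 without both libraries with Y-linked transcripts, 0 with the replicate block and 0 in the transcript-level fit, and 0 to 4 with 1 library left out. Same-numbered lung and ear libraries correlated at -0.194 and -0.0393 at 0 h and 0.260 and 0.256 at 12 h. With 2 lung libraries in a group, these values cannot show whether such libraries share a source. Under the block by number across tissues, all-gene counts were 745 at 0 h and 1164 at 12 h. Lung has no replicate 3, so ear 0 h replicate 3 and ear 12 h replicate 3 did not bear on the tissue differences in that block. It also left fewer residual degrees of freedom than the main fit, so its lost calls cannot be told apart from a loss of power. Without both libraries with Y-linked transcripts 555 genes were called at 0 h. With 1 library left out they were 547 to 1752 at 0 h and 1356 to 2468 at 12 h. The replicate block in ear, where same-numbered libraries were treated as pairs, left 0 members called over time.

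Over time in lung, genes called were 7 with no filter and 0 with a filter of 5 TPM, a pseudocount of 0.1, without both libraries with Y-linked transcripts, or with the replicate block, and 0 to 121 with 1 library left out (121 without lung 12 h replicate 1). The block with lung numbers crossed, chosen after seeing the data, gave 0. In the difference between the time effects they were 2 with no filter, 1 with upper-quartile scaling and 1 with quantile normalization, and 0 to 21 with 1 library left out (21 without lung 12 h replicate 1).

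Turned directions, all uncalled, were these. The Bcl2 difference between time effects was 0.087 with quantile normalization and 0.12 in the transcript-level fit. Without both libraries with Y-linked transcripts, values over time were 0.011 for Bad in ear, and -0.11 for Bcl2, -0.11 for Bcl2l1 and -0.019 for Pmaip1 in lung, and the differences between time effects were -0.028 for Bcl2l1 and -0.027 for Mcl1. In the transcript-level fit they were 0.0042 for the Bax difference between time effects, and 0.040 for Bbc3 and -0.028 for Bcl2l11 in lung against ear at 12 h.

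With 1 library left out, time values in ear ran from -0.058 to 0.20 for Bcl2, -0.21 to 0.039 for Bcl2l1, -0.10 to 0.11 for Bad and -0.13 to 0.74 for Pmaip1. In lung they ran from -0.16 to 0.27 for Bcl2, -0.18 to 0.33 for Bcl2l1, -0.31 to 0.022 for Bax, -0.046 to 0.68 for Bak1, -0.49 to 0.059 for Bad, -0.12 to 0.28 for Pmaip1 and -0.37 to 0.0039 for Bcl2l11. Differences between time effects ran from -0.22 to 0.21 for Bcl2, -0.10 to 0.41 for Bcl2l1, -0.17 to 0.52 for Mcl1, -0.19 to 0.14 for Bax, -0.47 to 0.073 for Bad and -0.66 to 0.21 for Pmaip1. Lung against ear at 12 h ran from -0.32 to 0.87 for Bid.

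Uncalled members that gained a call were Bcl2l11 at 0 h with upper-quartile scaling (0.86) and quantile normalization (0.87), and at 12 h Bcl2l1 (0.78 with upper-quartile scaling, 0.75 with quantile normalization, 0.95 without lung 12 h replicate 1, and also without ear 12 h replicate 2), Bak1 (0.76 with upper-quartile scaling and 1.04 without lung 12 h replicate 1) and Mcl1 (0.84 without lung 12 h replicate 1). With 2 or 3 libraries in a group and depth unknown, small differences could not be resolved.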

Other observations

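Bnip3 and Bnip3l encode mitochondrial outer membrane proteins that mark mitochondria for removal. Bnip3 stood at 601 and 89.6 TPM in lung at 12 h and 168 and 518 TPM in lung at 0 h, against 456, 154 and 441 TPM in ear at 12 h and 310, 180 and 175 TPM in ear at 0 h. Within each lung group the Bnip3 values differed by over 3 times. Bnip3l stood at 167 and 91.5 TPM in lung at 12 h and 95.3 and 149 TPM in lung at 0 h, against 195, 114 and 181 TPM in ear at 12 h and 142, 129 and 130 TPM in ear at 0 h. These values were singled out after they were seen.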
